A study of Mus musculus with 20 samples.

Results

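A set of 10 genes used as markers of immature, still growing neurons were followed across the 20 libraries: Dcx, Sox11, Sox4, Igfbpl1, Tubb2b, Marcksl1, Stmn1, Dpysl3, Dpysl5 and Cd24a. They were chosen by name, as genes known from newly formed neurons, with earlier results of these data known. The 10 genes are 10 of the 19269 in the deposited table, and all 10 passed the filter on low counts in every comparison.

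The tissue was punched from the preoptic area of female mice, the hypothalamic region that holds the cell bodies of gonadotropin-releasing hormone (GnRH) neurons. Each of 10 pools held tissue of 3 to 4 mice, taken on day 21 (young) or at 70 to 150 days (adult, in diestrus). Ribosomes were pulled down with the L10a-GFP tag, giving an immunoprecipitate (IP), and the RNA left behind was kept as a depleted supernatant. The table held 14 supernatant and 6 IP libraries, in groups of 1 to 3 pools.

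A group of 5 pools had no expressed tag and served as negative controls, each with an IP and a supernatant. Young negative pools 1 and 2 were Wild Type, young negative pool 3 was Floxed L10a-GFP only, and both adult negative pools were GnRH CRE only, so age and genotype changed together among them. A single adult pool of GnRH CRE x Floxed L10a-GFP mice (GFP-positive) also gave an IP and a supernatant. These 6 are called the new pools. Another 4 pools of that last genotype, 2 young and 2 adult, gave supernatants in which GnRH neuron ribosomes had been removed. They came from an earlier series and are called the prior pools, and each was sequenced in a first and again in a second set, while every new pool was in the second set. In the tagged pools the GnRH promoter limits the tag to cells that express Cre. The series title names prenatal androgenization, and the labels used here do not give a prenatal treatment for any pool.

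Newly formed neurons express doublecortin and the SoxC transcription factors while they migrate and extend axons, and they carry large amounts of tubulin, tubulin-binding proteins and growth cone proteins. Most of these transcripts fall as neurons mature, but several are also made by mature neurons or glia, and Cd24a by ependymal and immune cells. In a bulk sample, fewer cells of a type and less RNA of these genes per cell cannot be told apart.

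Library totals lay between 27.7 and 50.5 M counts, and 3 counts corresponded to between 0.0594 and 0.108 counts per M (CPM). No 2 libraries were identical. Values are CPM scaled by trimmed means (TMM) unless stated. Gnrh1, the gene whose neurons the tag marks, reached 1457 CPM in the IP of the GFP-positive pool, and lay between 7.85 and 33.5 CPM in the negative IP and between 13.5 and 47.6 CPM in the supernatants. Markers of mature neurons summed to between 6926 and 9506 CPM in the second-set supernatants. Those of dividing progenitors summed to no more than 19.8 CPM there. The 24 listed transcription factors of neurogenesis summed to between 749 and 849 CPM in the 5 young ones. Of these factors only the proneural gene Neurog1 was at 0 in all 5.

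The 3 genes of the cytoskeleton's tubulin arm lie on different chromosomes of the mm10 build. Dcx, which encodes the microtubule-binding protein doublecortin of migrating neurons, lies at chrX:143855842-143933311 on the minus strand. Tubb2b, a beta-tubulin of developing neurons, lies at chr13:34126748-34130466 on the minus strand, and Stmn1, whose product stathmin binds tubulin dimers, at chr4:134468320-134473843 on the plus strand. Of the 50-base stretches of the Tubb2b transcript, 39.3% also occur in other genes, mostly in Tubb2a (33.4%). For Stmn1 this share was 36.5%, mostly with Gm11223 (34.7%). The sources used here do not say how such reads were counted, so the values of Tubb2b and Stmn1 are uncertain.

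The growth cone and actin genes comprised Marcksl1 (chr4:129513581-129515985, plus strand), which encodes an actin- and calmodulin-binding protein of the MARCKS family, and the collapsin response mediator genes Dpysl3 (chr18:43320984-43438286, minus strand) and Dpysl5 (chr5:30711564-30799375, plus strand). Both SoxC transcription factor genes have 1 exon, Sox11 at chr12:27334264-27342574 and Sox4 at chr13:28948919-28953713, each on the minus strand. Sox4 overlaps an antisense gene, Gm26735, and strand use in counting was not given. Dpysl5 overlaps Gm42764 and Stmn1 overlaps Gm23634, each on the same strand. Igfbpl1 (chr4:45809468-45826923, minus strand) encodes a relative of the insulin-like growth factor binding proteins, and Cd24a (chr10:43578284-43584265, plus strand) a membrane-anchored glycoprotein.

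The 10 genes differed widely in level. Per kilobase of the longest coding transcript, mean levels over the 14 supernatants were 1398 CPM per kb for Stmn1 and 394 CPM per kb for Marcksl1. A middle group of 5 genes lay together, with Tubb2b at 18.3, Cd24a at 16.1, Dpysl5 at 12.1, Sox4 at 11.5 and Dpysl3 at 11.4 CPM per kb. Sox11 followed at 2.79, Dcx at 1.25 and Igfbpl1 at 0.349 CPM per kb. The 2 most abundant genes are thus also those with the shortest transcripts, 1060 nt for Stmn1 and 1605 nt for Marcksl1, and the gene most often taken to mark immature neurons, Dcx, was the second lowest per kb. Igfbpl1 rested on 14 to 70 reads in each supernatant, and it had no read in the IP of young negative pools 1 and 3, where 3 counts would be 0.0604 and 0.0621 CPM.

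**Figure D1:**
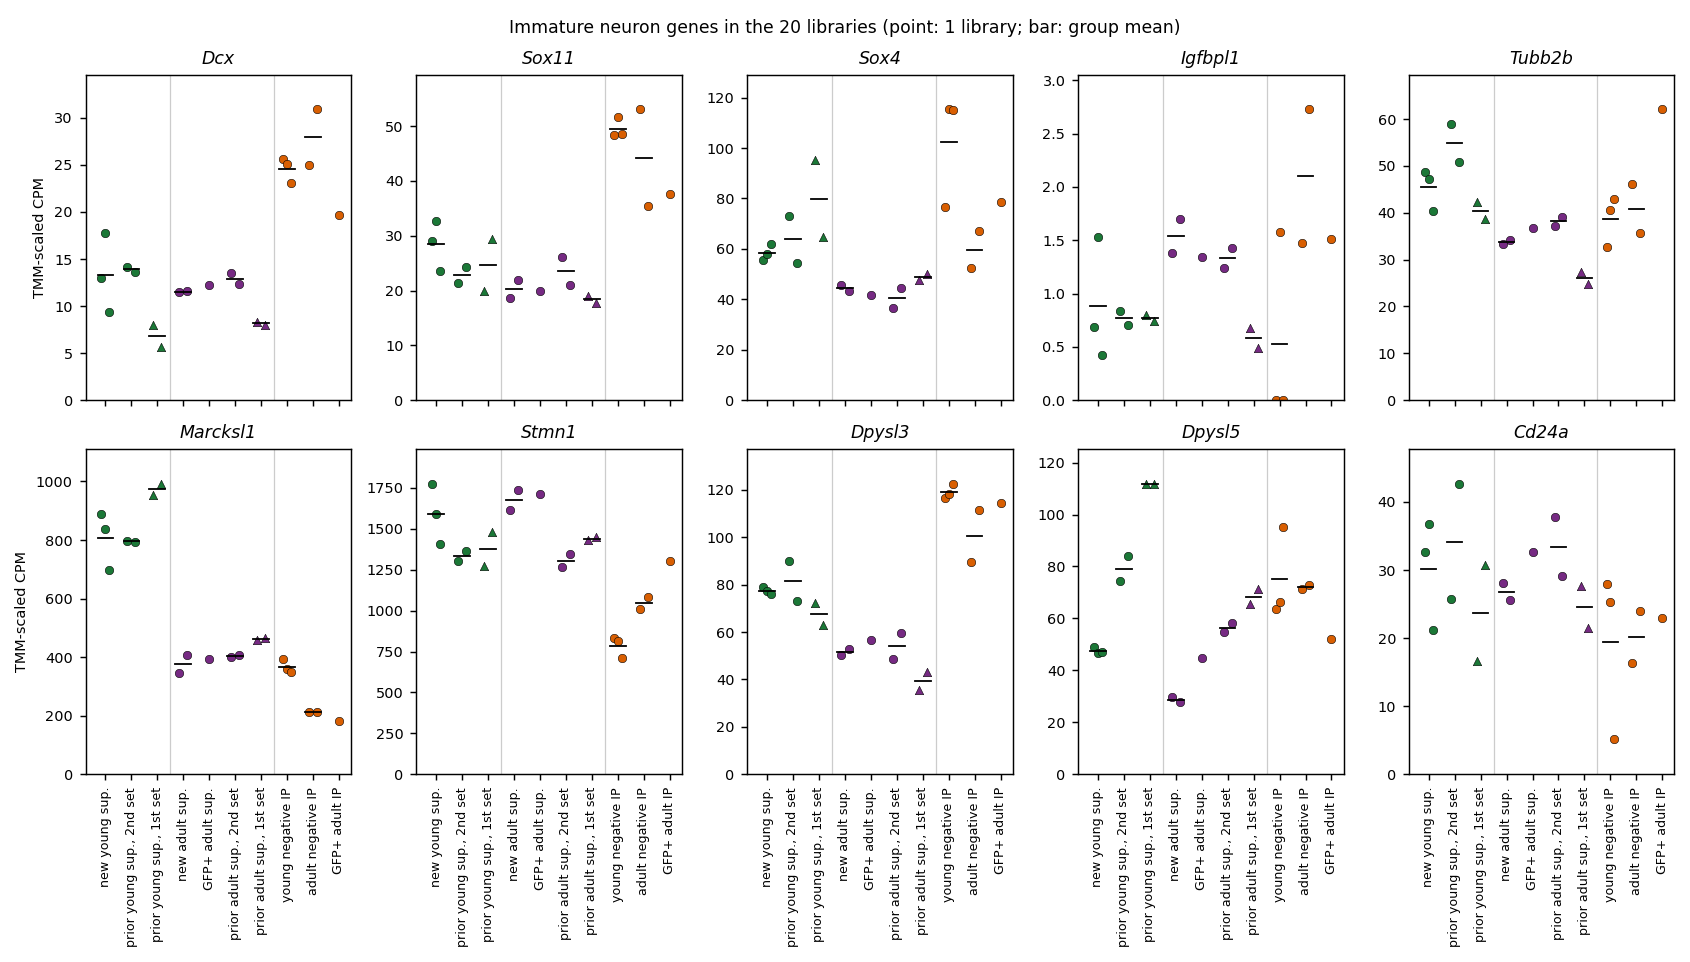
TMM-scaled CPM (vertical axes, linear from 0) of the 10 genes in each of the 20 libraries, by group; each point is 1 library, triangles are the first sequencing set and bars are group means. Marcksl1 lay at 697 to 993 CPM in every young supernatant and at 347 to 465 CPM in every adult supernatant, and Dcx at 23.0 to 30.9 CPM in the negative IP against 5.69 to 17.7 CPM in all supernatants.

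RefSeq windows of the 250 bases upstream of the start (build GRCm38.p6) were matched for 5 of the 10 genes. Those of Marcksl1, Sox4 and Dpysl5 are shown because these 3 genes were lower in adults than in young supernatants. Dcx and Sox11, which did not pass the age test, also had windows, which are not shown. Dpysl3 and Tubb2b, which were lower in adults too, had no matched window. Capitals mark the CCAAT box (CCAAT, or ATTGG on the other strand) and the GC box (GGGCGG, or CCGCCC on the other strand), each read 5′ to 3′ on the gene's strand, and no marked match overlapped another. The windows lie at chr4:129513331-129513580 (plus strand), chr13:28953700-28953949 (minus strand) and chr5:30711314-30711563 (plus strand).
Marcksl1: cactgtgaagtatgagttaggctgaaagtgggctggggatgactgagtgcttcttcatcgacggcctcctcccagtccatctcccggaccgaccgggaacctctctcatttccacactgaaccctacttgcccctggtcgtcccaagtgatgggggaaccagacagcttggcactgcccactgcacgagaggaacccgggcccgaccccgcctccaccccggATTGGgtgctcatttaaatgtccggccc
Sox4: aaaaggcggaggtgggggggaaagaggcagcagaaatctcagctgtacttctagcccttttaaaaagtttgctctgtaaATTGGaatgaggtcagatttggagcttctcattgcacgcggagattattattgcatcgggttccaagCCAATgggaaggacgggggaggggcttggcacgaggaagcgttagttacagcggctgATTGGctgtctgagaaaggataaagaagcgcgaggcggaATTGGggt
Dpysl5: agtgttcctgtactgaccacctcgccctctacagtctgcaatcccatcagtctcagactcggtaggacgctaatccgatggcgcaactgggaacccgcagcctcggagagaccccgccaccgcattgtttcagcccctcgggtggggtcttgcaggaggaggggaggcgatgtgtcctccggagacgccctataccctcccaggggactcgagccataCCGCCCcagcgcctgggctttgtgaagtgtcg
The Sox4 window held 4 CCAAT boxes and no GC box, the Marcksl1 window 1 CCAAT box and no GC box, and the Dpysl5 window 1 GC box and no CCAAT box. The end of the Sox4 window, with its last CCAAT box, lies inside the gene position given above, which came from another annotation. Among all 32851 RefSeq windows of this length, 33.8% held a CCAAT box and 32.7% a GC box. GC content was 60.4% for Marcksl1, 50.8% for Sox4 and 62.8% for Dpysl5, against a median of 52.4%. Neither marked motif was in all 3 windows, and a match is a description of the letters only.

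The first comparison asked how the genes differ between day 21 and adulthood in the supernatant, over the 5 young and 5 adult pools of the second set with pool origin (new or prior) as a term. Of the 10 genes, 5 were lower in adults and none was higher: Marcksl1, Dpysl3, Sox4, Dpysl5 and Tubb2b. Marcksl1 fell most, to 0.487 of its young level, and the other 4 fell to between 0.676 and 0.734 of theirs. Of all 15537 genes tested, 9.76% changed, 4.16% rising and 5.6% falling. The median log2 difference was -0.36 over the 10 genes and 0.00 over all genes tested. Among all changed genes 42.6% rose, and 61.3% rose when total counts replaced TMM, while the same number of members, 5, was called.

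Marcksl1 stood at 889, 838 and 697 CPM in the new young pools and at 798 and 795 CPM in the prior young pools. In the adults it stood at 347 and 408 CPM in the negative pools, 394 CPM in the GFP-positive pool and 402 and 408 CPM in the prior pools. Every adult pool was therefore below every young pool, by a wide gap between 408 and 697 CPM. The mean was 803 ± 70.5 CPM in young and 392 ± 25.8 CPM in adults (SD, n = 5 each), a log2 difference of -1.04 (SE 0.07; edgeR adjusted p = 6.404e-06), or 2.05-fold lower in adults. The difference was called within each origin and set as well: -1.06 in the new pools (edgeR adjusted p = 0.00309), -0.98 in the prior pools of the second set (0.0351) and -1.07 in the same prior pools of the first set (0.00893). The prior pools share 1 genotype at both ages.

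Dpysl3, the collapsin response mediator gene, stood at 79.0, 77.3 and 76.0 CPM in the new young pools and at 90.1 and 73.3 CPM in the prior young pools. In adults it stood at 50.1, 53.0 and 56.8 CPM in the new pools and at 48.5 and 59.6 CPM in the prior pools. Again every adult pool was below every young pool. The log2 difference was -0.57 (SE 0.08; edgeR adjusted p = 0.00123). Within the new pools it was -0.53 (edgeR adjusted p = 0.0204). Within the prior pools it was -0.60 in the second set (0.266) and -0.78 in the first (0.128), where only 2 pools stood against 2.

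Sox4 stood at 55.6, 57.8 and 61.8 CPM in the new young pools and at 73.1 and 54.5 CPM in the prior young pools, against 45.7, 43.2 and 41.7 CPM in the new adult pools and 36.5 and 44.5 CPM in the prior adult pools. The groups did not overlap, and the log2 difference was -0.52 (SE 0.10; edgeR adjusted p = 0.00582). Its relative Sox11 was at 21.4 to 32.7 CPM (median 24.3) in young and 18.6 to 26.2 CPM (median 21.0) in adult supernatants, which overlapped, and its log2 difference of -0.28 (SE 0.13) did not pass the test (edgeR adjusted p = 0.20), though it did with first-set libraries in place of second-set ones (0.0284). Within origins Sox4 was lower by a similar amount each time, -0.41, -0.66 and -0.70 in the new pools and in the prior pools of the second and first set, without passing the test in any of them alone (edgeR adjusted p = 0.0556, 0.277 and 0.24).

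Tubb2b stood at 48.8, 47.3 and 40.3 CPM in the new young pools and at 59.0 and 50.9 CPM in the prior ones, and in adults at 33.4, 34.2 and 36.8 CPM in the new pools and 37.2 and 39.1 CPM in the prior ones. The adult values were all below the young values, the closest being 39.1 and 40.3 CPM. The log2 difference was -0.45 (SE 0.08; edgeR adjusted p = 0.00534), and within origins it was -0.37, -0.53 and -0.63, with edgeR adjusted p values of 0.103, 0.257 and 0.199.

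Dpysl5 was higher in every prior pool than in every new pool of the same age, and its values overlapped between the ages. In the new pools it stood at 48.9, 46.7 and 47.1 CPM in young against 29.7, 27.7 and 44.9 CPM in adults, the last value being the GFP-positive pool. In the prior pools of the second set it stood at 74.3 and 83.9 CPM in young against 54.7 and 58.2 CPM in adults. Within each origin every adult pool was thus below every young pool, in the new pools by the narrow margin of 44.9 against 46.7 CPM. The share of all genes separated in this way was not counted. With origin as a term the log2 difference was -0.49 (SE 0.12; edgeR adjusted p = 0.0196), and within the new pools, the prior pools of the second set and those of the first set it was -0.47, -0.49 and -0.70 (edgeR adjusted p = 0.169, 0.257 and 0.0976). The call was lost without the supernatant of adult negative pool 1 (0.0634) and without that of prior adult pool 3 (0.0506), and with no term for origin (0.262).

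The remaining 4 genes were Dcx, Stmn1, Cd24a and Igfbpl1, and none passed the test. Dcx was at 9.37 to 17.7 CPM (median 13.6) in young and 11.5 to 13.5 CPM (median 12.3) in adult supernatants, a log2 difference of -0.16 (SE 0.15; edgeR adjusted p = 0.559). Stmn1 was at 1303 to 1776 CPM in young and 1264 to 1739 CPM in adults, with a log2 difference of 0.04 (SE 0.07; edgeR adjusted p = 0.796). Cd24a was at 21.2 to 42.7 CPM in young and 25.6 to 37.8 CPM in adults, with a log2 difference of -0.06 (SE 0.16; edgeR adjusted p = 0.866). Igfbpl1 had its higher values in adults, 1.24 to 1.70 CPM against 0.427 to 1.53 CPM in young, with a log2 difference of 0.75 (SE 0.34; edgeR adjusted p = 0.189). In the first set its sign turned, with a log2 difference of -0.40 in the prior pools.

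Counted by pools, 4 genes had all adult second-set values below all young ones (Marcksl1, Dpysl3, Sox4 and Tubb2b), as had 3.68% of all genes tested, and 0 had all above (2.68%). In the prior pools across both sets, 4 genes had all adult values below all young ones (Marcksl1, Dpysl3, Sox4 and Dpysl5), as had 6.34% of all genes tested, and 0 had all above (5.77%). These 8 libraries are 4 pools, each sequenced in both sets.

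**Figure D2:**
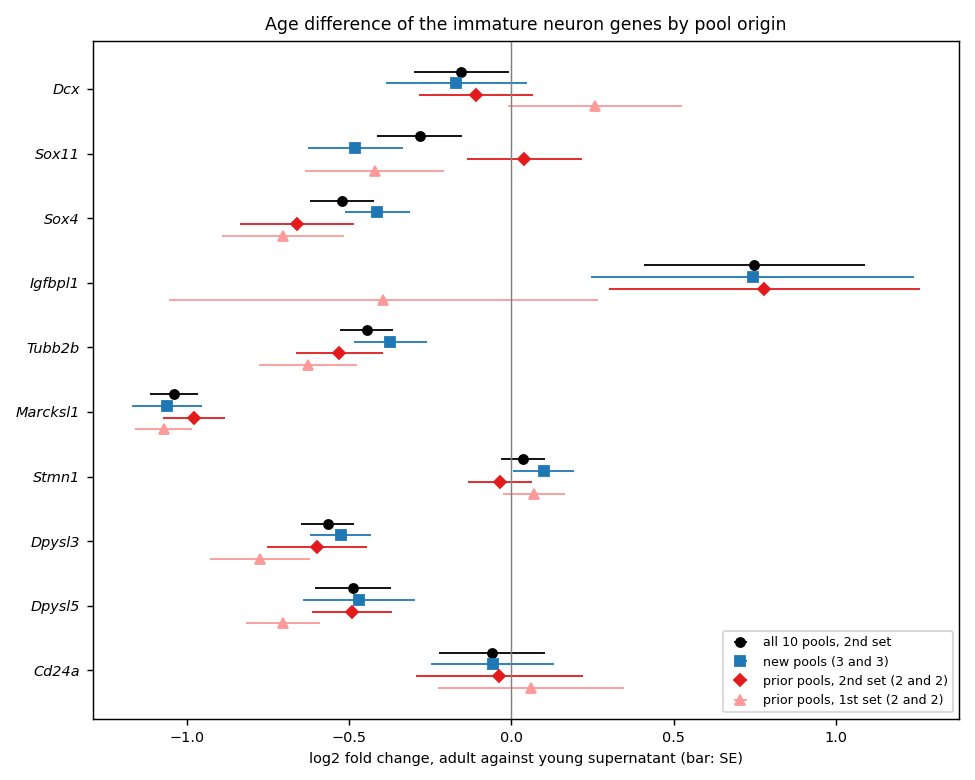
Log2 difference between adult and young supernatants (horizontal axis; point with SE bar) of each gene over all 10 second-set pools and within each pool origin and set. Marcksl1 lies between -1.07 and -0.98 in all 4 estimates, while Dcx, Stmn1, Cd24a, Sox11 and Igfbpl1 have estimates on both sides of 0.

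Close relatives of the 10 genes were read in the same comparison. Of 23 tested paralogs, 5 fell and 1 rose with age, beside 5.6% of all genes falling and 4.16% rising, and their median log2 difference was -0.15. Dpysl4, another collapsin response mediator gene, fell from 70.6 ± 15.1 to 32.3 ± 4.75 CPM (log2 -1.12, SE 0.08; edgeR adjusted p = 6.404e-06). Stmn2, a neuronal stathmin, fell from 900 ± 68.8 to 623 ± 44.1 CPM (log2 -0.53, SE 0.06; edgeR adjusted p = 3.997e-04), whereas Stmn1 did not pass the test. Dclk3, a doublecortin-like kinase gene, rose from 62.05 ± 10.04 to 88.02 ± 9.95 CPM (log2 0.50, SE 0.11; edgeR adjusted p = 0.0143).

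Of 21 tested transcription factors of neurogenesis, none rose or fell, and their median log2 difference was -0.01. Of 28 tested genes of axon growth and migration, 1 rose and 4 fell, with a median of -0.03. Cntn2, an axonal adhesion molecule gene, rose from 17.6 ± 2.81 to 30.5 ± 8.32 CPM (log2 0.78; edgeR adjusted p = 0.0141). Mllt11 fell from 665 ± 53.9 to 444 ± 37.3 CPM (log2 -0.59; edgeR adjusted p = 6.141e-04), and Tmsb10, an actin-sequestering thymosin gene, from 760 ± 161 to 528 ± 15.03 CPM (log2 -0.52; edgeR adjusted p = 0.00615).

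Markers of other cells moved with age in the same libraries. Of 10 genes of dividing progenitors, 5 fell, and their summed level was 9.74 to 19.8 CPM in young and 7.74 to 10.99 CPM in adult supernatants. Of 10 genes of oligodendrocyte precursors and committed oligodendrocytes, 5 fell: Gpr17, Enpp6, Neu4, Olig1 and Olig2. Pdgfra (log2 0.03), Cspg4 (0.12), C1ql1 (-0.02), Vcan (-0.39) and Bmp4 (-0.79) did not pass the test. The sums of all 10 did not overlap, at 532 to 676 CPM in young and 313 to 482 CPM in adults. Of 11 genes of mature oligodendrocytes 2 fell and 1 rose (sums 3562 to 5589 against 2084 to 4714 CPM), of 12 of mature neurons 1 fell and 1 rose (7295 to 8988 against 6926 to 9506 CPM), of 8 of microglia 2 rose (49.9 to 86.6 against 59.4 to 101 CPM) and of 8 of astrocytes 1 rose (1188 to 1467 against 1163 to 1553 CPM). No ependymal, endothelial or fibroblast marker changed, and the 1 blood gene tested fell (sums 6.34 to 21.1 against 1.37 to 7.78 CPM). The part of these cells in the fall of the 5 genes was not tested.

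The second comparison asked what an IP without any tag holds relative to its supernatant, in the 5 negative pools. Here the 10 genes split: Dcx, Sox11, Sox4, Dpysl3 and Dpysl5 rose in the IP, Marcksl1 and Stmn1 fell, and Tubb2b, Cd24a and Igfbpl1 did not pass the test. Changed genes made up 32.1% of the 16361 tested, 15.8% rising and 16.2% falling. The median log2 difference was 0.29 over the 10 genes and -0.03 over all genes. With total counts in place of TMM the share of changed genes that rose went from 49.4% to 59.9% and the median of all genes shifted by 0.12, with 7 members called under either scaling.

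Dcx stood at 25.7, 25.1 and 23.0 CPM in the young negative IP and 24.95 and 30.9 CPM in the adult negative IP. The supernatants of the same pools had 12.98, 17.7 and 9.37 CPM, and 11.5 and 11.6 CPM. Every IP value was above every supernatant value, and the log2 difference was 1.05 (SE 0.21; edgeR adjusted p = 0.00298), higher in 5 of 5 pools. Sox11 behaved alike, with 48.4, 51.7 and 48.5 CPM in young and 53.0 and 35.4 CPM in adult IP against 29.1, 32.7 and 23.5 CPM and 18.6 and 22.01 CPM in the supernatants. Its log2 difference was 0.93 (SE 0.16; edgeR adjusted p = 0.00165), again higher in 5 of 5 pools and without overlap.

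Dpysl5 rose to 63.7, 66.2 and 95.3 CPM in the young and 71.4 and 72.7 CPM in the adult IP, from 48.9, 46.7 and 47.1 CPM and from 29.7 and 27.7 CPM in the supernatants (log2 0.96, SE 0.13; edgeR adjusted p = 4.11e-04). Dpysl3 rose to between 89.6 and 123 CPM (median 117) from between 50.1 and 79.0 CPM (median 76.0), with a log2 difference of 0.76 (SE 0.10; edgeR adjusted p = 2.277e-04). Neither gene's groups overlapped. Sox4 was at 76.4, 115 and 115 CPM in the young and 52.3 and 66.9 CPM in the adult IP against 43.2 to 61.8 CPM in the supernatants, so the groups overlapped, and it was higher in 5 of 5 pools (log2 0.58, SE 0.14; edgeR adjusted p = 0.0105). Its call was lost without the supernatant of either adult negative pool (0.0501 without pool 1 and 0.0578 without pool 2).

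Stmn1 stood at 832, 814 and 710 CPM in the young and 1011 and 1081 CPM in the adult IP. In the supernatants it stood at 1776, 1590 and 1409 CPM and at 1617 and 1739 CPM. All IP values were below all supernatant values, and the log2 difference was -0.88 (SE 0.09; edgeR adjusted p = 5.273e-05). Marcksl1 stood at 395, 358 and 349 CPM in the young and 212 and 212 CPM in the adult IP, against 889, 838 and 697 CPM and 347 and 408 CPM in the supernatants. It was lower in 5 of 5 pools, while young IP values overlapped adult supernatant values, and the log2 difference was -1.02 (SE 0.09; edgeR adjusted p = 3.524e-05).

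Cd24a was lower in the IP of 5 of 5 pools, but by very different amounts: the IP held 28.0, 25.3 and 5.14 CPM in young and 16.4 and 23.9 CPM in adults, against 32.7, 36.7 and 21.2 CPM and 28.0 and 25.6 CPM in the supernatants. The value of 5.14 CPM, in young negative pool 3, stood apart from the others. The log2 difference was -0.55 (SE 0.40; edgeR adjusted p = 0.345). Tubb2b was higher in the IP of 3 of 5 pools, with a log2 difference of -0.01 (SE 0.14; edgeR adjusted p = 0.98) that turned positive with total counts (0.11). For Igfbpl1 the IP of the other young pool held 1.57 CPM and the adult IP 1.47 and 2.73 CPM, within and above the supernatant range of 0.427 to 1.70 CPM, so its IP libraries ran from no read at all to the highest level of the gene in any library.

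In counts of non-overlapping groups, 4 genes (Dcx, Sox11, Dpysl3 and Dpysl5) had all negative IP values above all negative supernatant values, as had 12.2% of all genes tested, and 1 gene (Stmn1) had all below, as had 11.7%.

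The direction in the IP followed the order of transcript length. From longest to shortest the lengths were 9074 nt for Dcx, 8311 nt for Sox11, 5479 nt for Dpysl3, 5191 nt for Dpysl5, 4795 nt for Sox4, 2864 nt for Igfbpl1, 2182 nt for Tubb2b, 1816 nt for Cd24a, 1605 nt for Marcksl1 and 1060 nt for Stmn1. The 5 genes that rose are the 5 longest, and the 2 that fell are the 2 shortest. Over all genes tested the median difference rose from each decile of length to the next. In the decile of genes with the longest transcripts, which holds Dcx and Sox11, the median log2 difference was 0.79, and in the shortest decile, which holds Stmn1, it was -0.66. Medians were 0.42 in the decile of Dpysl3 and Dpysl5, 0.24 in that of Sox4, -0.19 in that of Tubb2b, -0.32 in that of Cd24a and -0.40 in that of Marcksl1.

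With each library's trend on transcript length removed, 4 of the 10 genes were called in place of 7. Over all 16361 genes tested, 3445 were called in place of 5246. Dcx then had a log2 difference of 0.22 (SE 0.20; edgeR adjusted p = 0.506), Sox11 0.18 (SE 0.17; 0.528) and Sox4 0.31 (SE 0.13; 0.132). Dpysl5 still rose, by 0.62 (SE 0.12; edgeR adjusted p = 0.00613), as did Dpysl3, by 0.37 (SE 0.09; 0.0165). Marcksl1 still fell, by 0.60 on the log2 scale (SE 0.07; edgeR adjusted p = 4.043e-04), and so did Stmn1, by 0.28 (SE 0.06; 0.00905). In this fit Marcksl1 had the largest decrease of the 10 genes, as without the offset, and Dpysl5 the largest increase, in place of Dcx.

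**Figure D3:**
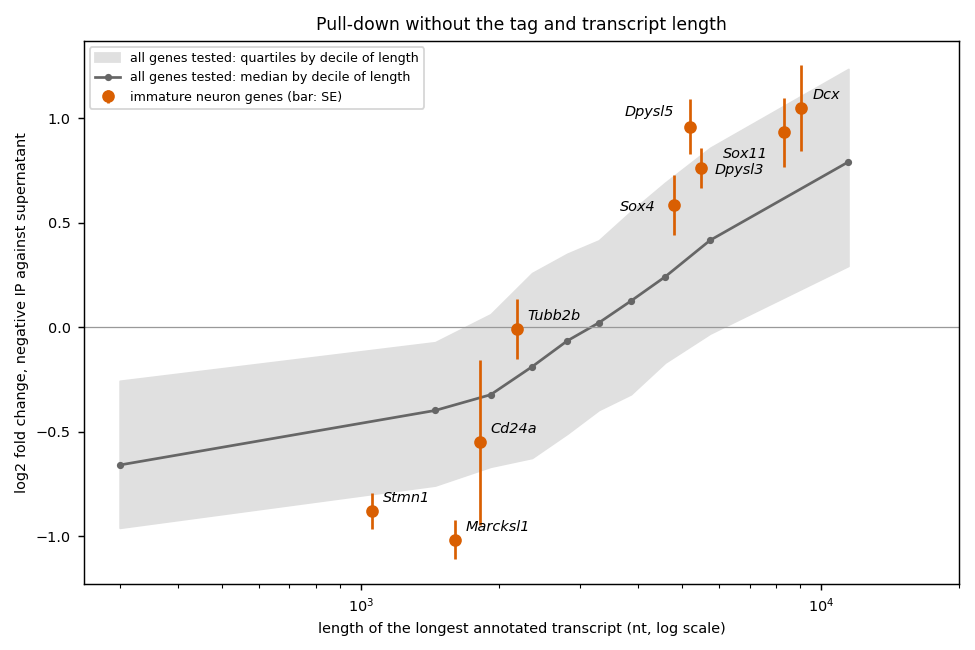
Log2 difference between negative IP and supernatant (vertical axis) against transcript length (horizontal log axis) for 9 of the 10 genes (points, SE bars; Igfbpl1, with 2 IP libraries at 0, is left out) and for all genes tested (line, median by decile of length; grey, quartiles). Stmn1 and Marcksl1, at the short end, lie at -0.88 and -1.02 and below the median of their deciles (-0.66 and -0.40), and Dcx and Sox11, at the long end, at 1.05 and 0.93 above theirs (0.79).

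The IP difference was also taken at each age. In young pools, where 27.1% of all genes changed (13% rising, 14.1% falling), 7 members were called as in the pooled fit, from Dcx at 0.84 to Marcksl1 at -1.18. In adult pools, where 10.9% changed (6.39% rising, 4.49% falling), 6 were called, from Dpysl5 at 1.31 to Marcksl1 at -0.85, and Sox4 at 0.41 was not (edgeR adjusted p = 0.294). With total counts the share of changed genes that rose went from 48.1% to 61.0% in young, where the median of all genes shifted by 0.16, and from 58.7% to 69.1% in adult pools. With the length trend removed, calls over all genes went from 4428 to 2644 in young and from 1779 to 909 in adult pools. Of the members, 2 remained called in young (Marcksl1 and Stmn1) and 3 in adult pools (Dpysl5, Dpysl3 and Marcksl1). Dpysl3 then lost its call in adults when the pool was also a block (edgeR adjusted p = 0.0575), leaving 2.

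Few libraries carried some of these calls. In young pools 3 members were called without the supernatant of pool 1, 5 without that of pool 2, and 4 without that of pool 3. Over all genes these fits called 2974, 2842 and 3454, in place of 4428. In adults, leaving out any adult library left 1 library in its group, and fewer members and fewer of all genes were then called.

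The fixed lists were read in the same comparison without removing the length trend, beside 15.8% of all genes rising and 16.2% falling. Of 28 tested genes of axon growth and migration, 13 rose and 5 fell (median log2 0.55). The summed level of this list went the other way without overlap, at 4882 to 5516 CPM in the IP and 6233 to 8240 CPM in the supernatants. Kif21b, a kinesin gene, rose from 15.8 ± 0.531 to 71.6 ± 4.71 CPM (log2 2.15, SE 0.12; edgeR adjusted p = 1.887e-06), Plxna2, a semaphorin co-receptor gene, from 16.3 ± 2.53 to 45.9 ± 6.51 CPM, and L1cam, an axonal adhesion molecule gene, from 22.6 ± 4.26 to 62.0 ± 15.9 CPM (n = 5 each). Of 23 paralogs 4 rose and 4 fell, a share near that of all genes. Sox12, the remaining SoxC gene, rose from 25.2 ± 6.72 to 67.3 ± 17.4 CPM (log2 1.49; edgeR adjusted p = 2.774e-04), Igfbp5 rose by 0.77 (0.0137), and Stmn3 fell by 0.76 on the log2 scale (edgeR adjusted p = 1.37e-04). Of 21 transcription factors 4 rose and 2 fell, again near the share of all genes, among them Bcl11b (log2 1.44), Dlx2 (0.70) and Sox3 (-1.12).

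Among markers of other cells, 6 of 12 genes of mature neurons rose in the untagged IP and 2 fell (median log2 0.40). Their sums did not overlap, at 9126 to 13530 CPM in the IP and 6926 to 8046 CPM in the supernatants. The largest rises were those of Nefh (log2 3.08), Nefl (1.89) and Nefm (1.28). Snap25 (-0.55) and Slc32a1 (-0.74) fell, and the length trend was not removed for these markers. Of 8 microglial genes 3 fell, as did 2 of 10 genes of dividing progenitors (median log2 -0.98) and 2 of 11 of mature oligodendrocytes. Of 10 genes of oligodendrocyte precursors and committed oligodendrocytes 2 rose and 2 fell, and of 8 of astrocytes 2 rose and 1 fell. No ependymal, endothelial, fibroblast or blood marker passed the test. The part of cell makeup in the members' differences was not tested.

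The age difference was then read within the untagged IP, 3 young against 2 adult libraries, where 0.727% of all genes changed (0.324% rising, 0.403% falling). Marcksl1 was the only member called, with 349 to 395 CPM in young and 212 CPM in both adult IP (log2 -0.77, SE 0.13; edgeR adjusted p = 0.0401). Sox4 (log2 -0.76) and Stmn1 (log2 0.44) had an edgeR adjusted p of 0.119 each. This call was lost without any 1 of the 5 supernatants or either adult IP (edgeR adjusted p = 0.061 to 0.108), while the log2 difference stayed between -0.79 and -0.76. Those supernatants enter through the shared estimate of spread.

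Whether the age difference itself differed between IP and supernatant was tested by the interaction of age and fraction. No member passed, and no gene of the 16361 tested did by edgeR (0%), although 1068 had an unadjusted p under 0.05 and DESeq2 called 118 genes, none of them a member. For Marcksl1 the interaction was 0.33 (SE 0.18; edgeR adjusted p = 0.821). The 1 member with an unadjusted p under 0.05 was Dpysl5, at 0.70 (SE 0.26; edgeR adjusted p = 0.734).

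The 4 prior pools allowed the same RNA to be compared between the 2 sequencing sets, with the pool as a term. Of the 10 genes, 8 differed: Dcx, Tubb2b, Cd24a and Dpysl3 were higher in the second set, and Dpysl5, Sox4, Marcksl1 and Stmn1 were lower. Changed genes made up 31.1% of 16117 tested, 15% rising and 16.1% falling, and the median over the 10 genes was 0.23 against 0.00 over all.

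Dcx showed the widest gap. The young pools went from 8.03 and 5.69 CPM in the first set to 14.2 and 13.6 CPM in the second, and the adult pools from 8.34 and 8.01 to 13.5 and 12.3 CPM. All second-set values were above all first-set values, as in 9.26% of all genes tested, and no member had all second-set values below (6.44%). The log2 difference was 0.83 (SE 0.13; edgeR adjusted p = 1.408e-04). For Dcx the set difference was thus larger than its age difference of -0.16. Dpysl5 went the other way, from 112 and 112 CPM to 74.3 and 83.9 CPM in young and from 65.4 and 71.3 to 54.7 and 58.2 CPM in adult pools (log2 -0.40, SE 0.06; edgeR adjusted p = 2.019e-04).

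The direction was shared by all 4 pools for Dcx, Tubb2b (log2 0.48, SE 0.07), Cd24a (0.48, SE 0.08) and Dpysl3 (0.35, SE 0.06), which were higher in the second set, and for Dpysl5, Sox4 (-0.31, SE 0.06) and Marcksl1 (-0.25, SE 0.04), which were lower. Stmn1 was lower in 3 of 4 pools (log2 -0.11, SE 0.03; edgeR adjusted p = 0.028), and its call was lost without young pool 2, adult pool 3 or adult pool 4 in turn (0.0738 to 0.175). Sox11 (log2 0.12) and Igfbpl1 (0.59) did not pass. For Marcksl1 the set difference was small beside its age difference, whereas for Dpysl5 it was -0.40 beside an age difference of -0.49.

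**Figure D4:**
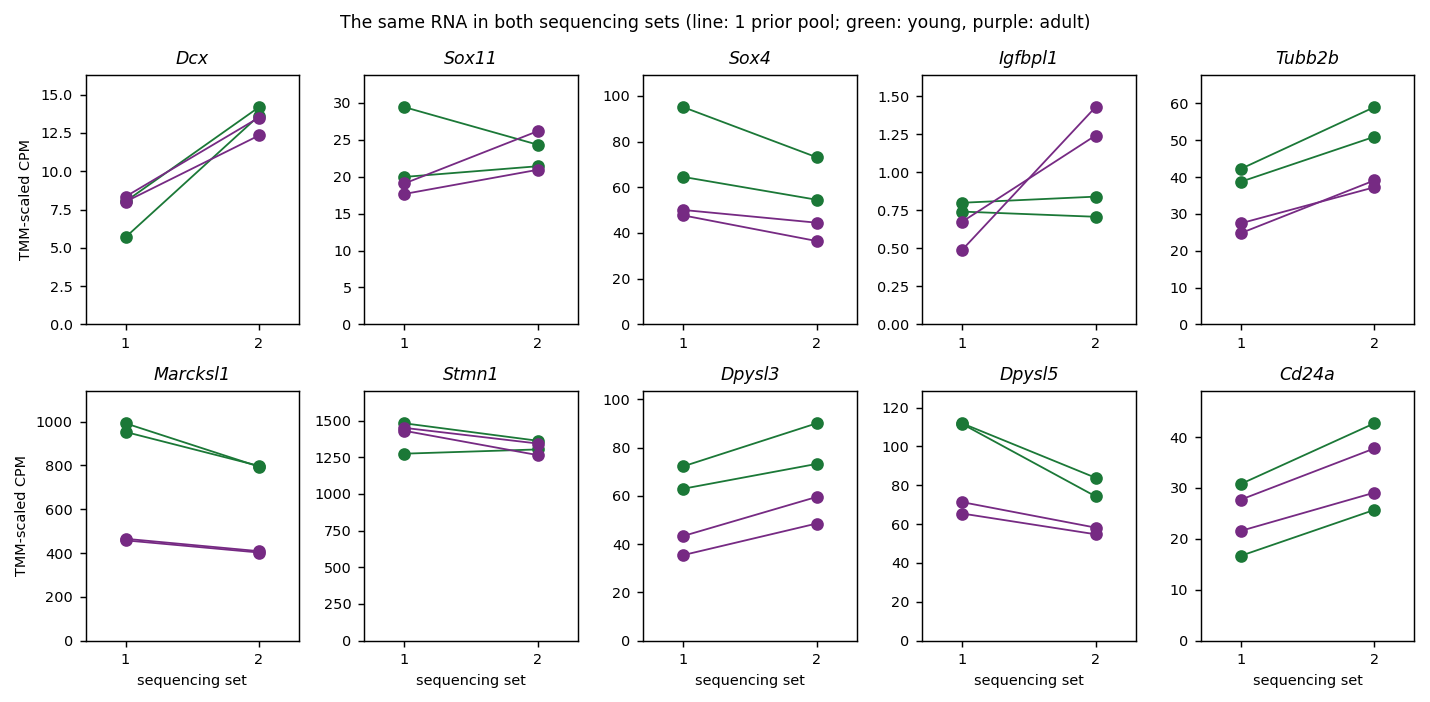
TMM-scaled CPM (vertical axes from 0) of the same RNA in the first and second sequencing set (horizontal axis); each line is 1 prior pool, green young and purple adult. The 4 Dcx lines rise from 5.69 to 8.34 CPM up to 12.3 to 14.2 CPM, and the 4 Dpysl5 lines fall, with young above adult in both sets.

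The GFP-positive IP, a single library, is given without a test. Tubb2b stood at 62.0 CPM there against 32.7 to 46.1 CPM in the 5 negative IP, and Stmn1 at 1303 CPM against 710 to 1081 CPM; 16.5% of all genes tested lay above all 5 in the same way. Dcx at 19.6 CPM (negative IP 23.0 to 30.9), Marcksl1 at 182 CPM (212 to 395) and Dpysl5 at 51.9 CPM (63.7 to 95.3) lay below all 5, as did 16.1% of all genes. The GFP-positive pool was adult, while 3 of the 5 negative IP were young. Sox4 at 78.75 CPM and Dpysl3 at 114.4 CPM lay above both adult negative IP (52.35 and 66.92, 89.58 and 111.5 CPM). Both were within the range of all 5, and the share of all genes above both adult IP was not counted. Relative to its own supernatant the GFP-positive IP held 2.01 times the Dpysl3 level, 1.89 times that of Sox4, 1.88 times that of Sox11 and 1.60 times that of Dcx, and 0.762 times that of Stmn1 and 0.461 times that of Marcksl1. The ratio was 1.69 for Tubb2b, which in the negative pools was higher in the IP of 3 of 5 pools. For Dpysl5 the ratio was 1.16, whereas its rise was 1.95-fold in the negative pools of both ages and 2.48-fold in the adult ones. For Igfbpl1 the ratio was 1.124 and for Cd24a 0.703.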

How the data were processed

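The authors deposited raw read counts (whole numbers, 19269 gene symbols by 20 libraries). The submitters' processing notes name TopHat2 2.0.13, HTSeq 0.6.1, DESeq2 1.14.1 and the build mm10 among other tools, without roles. The annotation and strand setting are not given in the sources used here. An ultra-low-input kit amplified polyA RNA, per the labels' protocols, so reads are not independent molecules and count floors cover counting error only. Total counts per library were 27.7 to 50.5 M.

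Groups followed sample titles. The series text names the GFP-positive supernatant in 2 ways, and descriptions give other replicate numbers for the adult negative supernatants; titles and genotypes were followed. Pools are separate groups of mice.

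All genes were fitted in edgeR (version 4.0.16, R 4.3.3; quasi-likelihood test) with TMM scaling, filterByExpr (minimum count 10) and Benjamini-Hochberg adjustment over all genes tested, at a threshold of 0.05. The age fit held 10 second-set supernatants with pool origin as a term, and the set fit held 8 libraries with pool as a term. From 1 fit of the 10 negative libraries came the fraction, age and interaction results. That fit compared group means and did not pair IP and supernatant by pool, which was done only in an alternative. Alternatives were other size factors, DESeq2 1.42.0, limma voom 3.58.1, no filter, a replicate block, a length offset (lowess span 0.3), subsets of pools and leaving out each library. Same-numbered IP and supernatant libraries of the young negative pools deviated together from their group means. Their correlations across genes were 0.17, 0.113 and 0.284, above all differently numbered young pairs (at most 0.054). With 2 adult libraries per fraction the deviations mirror each other, so the adult correlation of 0.103 gives a sign only. The title numbers of the negative pools were taken as pairs at both ages. The fits were also run on counts simulated without effects of pool, origin or transcript length. That run cannot speak to these effects, and its outcome is not reported here.

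Transcript lengths and positions came from an mm10 annotation (the longest coding transcript, for 98.4% of genes), and promoters from RefSeq. The 10 genes and the lists of paralogs, transcription factors, axon growth genes and cell markers were chosen with earlier results of these data known. All 10 genes were named, and from each list up to 3 called genes per comparison with mean log2 CPM of at least 3, ordered by size of change; some genes that this rule names are not reported here.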

Additional observations from a re-analysis of the deposited data

Results flagged for a closer look

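Marcksl1 in the 5 adult second-set supernatants had 1 value apart from the rest: adult negative pool 1 stood at 347.1 CPM, while the other 4 lay between 394 and 408 CPM. The gap exceeded the 95% critical value of Dixon's test for 5 samples (0.71). Of 20 groups of this size examined for the 10 genes, this was the only such value, and chance gives about 1 in 20. That library is also among the 2 whose absence ended the Dpysl5 age call, and without it Marcksl1 was still lower in adults.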

How the results depend on the processing

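The members called were 5 for age, 7 for the untagged IP at both ages, 7 in young, 6 in adults, 1 for age within the IP, 0 for the interaction and 8 for the sequencing set. Age calls numbered 2 within new pools, 1 within the prior pools of either set and 3 in negative pools only, without Sox4 and Tubb2b. For the IP, a length offset gave 4, 2 and 3 members (both ages, young, adult), and with the replicate block added 4, 2 and 2. Age within the IP gave 3 by DESeq2, 0 by limma voom and 0 with a replicate block, and the set comparison 4 with no replicate block. Leaving out 1 library at a time gave 4 to 5, 6 to 8, 3 to 7, 1 to 6, 0 to 2, 0 and 7 to 8 members in that order. The count of 8 in the untagged IP added Igfbpl1, without the IP of young pool 2, which leaves the young IP at 0 for it. Beyond these, the replicate block changed a member call in age only, where it gave 4 without Dpysl5 (adjusted p = 0.0614); the title numbers there name unrelated pools. The cause was not tested.

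The log2 differences that changed sign were, for age, Dcx (0.26) and Igfbpl1 (-0.40) in the first set, Sox11 (0.039) and Stmn1 (-0.035) in the prior pools of the second set, Cd24a with the block (0.069) and in the first set (0.061), and, with 1 library left out, Stmn1 (-0.010 to 0.073) and Cd24a (-0.16 to 0.067). For the IP these were Tubb2b with total counts (0.11), the length offset (0.25), the offset and block (0.24) or 1 library left out (-0.11 to 0.082), and Igfbpl1 with 1 library left out (-3.87 to 0.12). In young pools the offset turned Dcx (-0.021) and Sox11 (-0.041, and -0.026 with the block). In the set comparison leaving out adult pool 3 turned Sox11 (-0.0026).

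Counts over all genes ranged from 11 to 2257 (1517 as reported) for age, 3211 to 5882 (5246), 2425 to 5262 (4428) and 285 to 2897 (1779) for the IP, 0 to 1284 (119) for age in the IP, 0 to 118 (0) for the interaction and 2237 to 5120 (5008) for the set. Comparisons within origins had 2 or 3 pools a side, and Igfbpl1 had 106 reads at most. Whether pools differed in prenatal treatment was not analysed here.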

Other observations

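Among the 8 genes whose profile over the 20 libraries lay nearest to the median profile of the 10 genes, of 10344 ranked, were Dcaf17, Ckmt1, R3hdm1, Strbp, 9330159F19Rik, Gzf1 and Hdlbp. Their mean absolute difference from that profile was 0.116 to 0.138 on the log2 scale. Of the 10 genes themselves Tubb2b lay nearest (0.186) and Igfbpl1 farthest (0.96), with Marcksl1 at 0.642.

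The fixed lists of neuronal development genes were also read between sequencing sets of the same RNA, where 15% of all genes were higher and 16.1% lower in the second set. Of 23 tested paralogs 4 were higher and 8 lower in the second set, of 21 neurogenesis transcription factors 2 were higher and 8 lower, and of 29 axon growth genes 7 were higher and 7 lower. No test compared these lists with other genes. Dcc, a netrin receptor gene, went from 6.16 ± 2.98 to 11.98 ± 3.06 CPM (log2 1.01, SE 0.17; edgeR adjusted p = 2.81e-04), and Elavl2, a neuronal RNA-binding protein gene, from 111 ± 20.6 to 164 ± 24.9 CPM (SD, n = 4 pools). Insm1, a transcription factor gene of newborn neurons, went from 19.6 ± 2.87 to 13.95 ± 3.20 CPM (log2 -0.52; edgeR adjusted p = 0.0028), and Tubb4a, a beta-tubulin gene, from 1442 ± 131 to 1166 ± 91.0 CPM.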
